A study of Mus musculus with 9 samples.

Results

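The immunoglobulin genes described here encode the heavy and light chains of antibodies, together with Jchain, the small protein that joins antibody units into dimers and pentamers. They were selected on their level, as the rows whose symbols name a variable (V), diversity (D), joining (J) or constant segment of the heavy, kappa or lambda chain, or Jchain, and whose mean normalized count over the 6 libraries of either of 2 tables was at least 3. This kept 147 of the 394 rows with such names, among 35013 rows in all. The 147 genes were 65 heavy V segments, 63 kappa V segments, 3 lambda V segments, 4 heavy J segments, 7 heavy constant genes, the kappa constant gene Igkc, 3 lambda constant genes and Jchain. Just inside the minimum, the higher of the mean normalized counts was 3.02 for Iglv3 and 3.37 for Ighv1-62-2 and for Ighv1-71, and just outside it was 2.93 for Igkv4-68, 2.89 for Igkv2-112 and 2.81 for Ighv1-4.

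The level alone chose these genes, and the Tomatoneg libraries carried most of them over the minimum. A Tomatoneg mean of at least 3 was reached by 144 of the 147, and 90 of these had no Tomato+ mean of at least 3 in either table. The remaining 3 genes reached it only in Tomato+ libraries. A gene that passed only through the group where it was high had to differ between the groups, so the counts of lower genes given here describe these genes and are not independent evidence of a direction.

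The libraries came from small intestinal epithelial cells of NFKO mice, whose genotype label is Neurog3Cre-FoxO1 f/f; Rosa26tdtomato, aged 4 to 6 weeks according to the methods. Cre is driven by Neurog3, the transcription factor of intestinal endocrine progenitors, so the Tomato reporter is switched on and the floxed FoxO1 alleles are deleted in cells that descend from Neurog3-expressing cells. Cells stained for CD24 and for the epithelial surface protein EpCAM were sorted into 3 groups of 3 libraries: CD24negTomato+ cells, CD24+Tomato+ cells, and Tomatoneg cells, which carry the same alleles but not the mark of the Cre. Neither the labels nor the methods give the number of mice behind a library, so the p-values measure the spread between these libraries. Each table of normalized counts held 1 of the Tomato+ groups with the same 3 Tomatoneg libraries, so the comparisons share their control libraries and are given side by side.

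A B cell assembles its heavy chain by joining a V, a D and a J segment, and its kappa or lambda light chain by joining a V and a J segment. The joined exon is then spliced to a constant gene, which sets the antibody class: Ighm for IgM, Ighd for IgD, the Ighg genes for IgG and Igha for IgA. Plasma cells transcribe these genes at a very high rate. In the small intestine they lie in the lamina propria under the epithelium, and the IgA that they secrete with J chain is carried through epithelial cells by the receptor encoded by Pigr.

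Segment length and likeness may limit what the deposited values hold, which was not tested. The reads were assigned with kallisto, which matches stretches of 31 bases by default. All 20 heavy D rows were annotated with 10 to 29 bases and were listed at 0 in every library, and none was among the 147 genes. The heavy J segments had 48 to 54 bases and all 4 were, whereas the 5 kappa J and 5 lambda J rows, with 36 to 43 and 38 to 42 bases, were not. Of these light chain rows, 3 kappa J and 1 lambda J were above 0 in some library. The 4 heavy J segments and 2 of the D segments are shown here from GENCODE M21 (GRCm38), 5′ to 3′ on the minus strand. Capitals mark TGGGG, the start of the tryptophan-glycine motif shared by the 4 J segments.
Ighj1 (chr12:113429781-113429833): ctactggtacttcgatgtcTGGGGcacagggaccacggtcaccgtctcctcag
Ighj2 (chr12:113429468-113429515): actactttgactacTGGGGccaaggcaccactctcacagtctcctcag
Ighj3 (chr12:113429085-113429132): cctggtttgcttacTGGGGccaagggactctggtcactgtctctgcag
Ighj4 (chr12:113428514-113428567): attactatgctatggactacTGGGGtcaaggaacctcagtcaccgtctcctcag
Ighd1-1 (chr12:113482170-113482192): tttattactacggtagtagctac
Ighd2-3 (chr12:113475400-113475416): tctatgatggttactac

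Many V segments share long stretches with others of their subgroup, so the value of such a V segment is less certain than that of a constant gene. Over the 131 V segments, the median share of 31-base stretches that occur in no other annotated gene was 52.6%, from 1.91% to 100%, and 59 segments were under 50%. For Igkc, Igha and Ighm that share was 100%. The first 300 bases of the coding part are printed for 2 pairs of closely alike segments, each segment with a share under 50%. That share was 7.76% for Ighv1-62-2, 2.43% for Ighv1-71, 36.4% for Igkv1-110 and 37.4% for Igkv1-117. Capitals mark bases that lie in a 31-base stretch found in no other gene. Ighv1-62-2 and Ighv1-71 were identical at 358 of 359 bases, with the substitution T8G counted from the first base of the start codon, and their values were equal in every library. Igkv1-110 and Igkv1-117 were identical at 349 of 359 bases (97.2%), and their values differed between libraries. Identities are over the whole coding part, and the spans given include the intron between the leader and the V exon.
Ighv1-62-2 (chr12:115446468-115446850, minus strand): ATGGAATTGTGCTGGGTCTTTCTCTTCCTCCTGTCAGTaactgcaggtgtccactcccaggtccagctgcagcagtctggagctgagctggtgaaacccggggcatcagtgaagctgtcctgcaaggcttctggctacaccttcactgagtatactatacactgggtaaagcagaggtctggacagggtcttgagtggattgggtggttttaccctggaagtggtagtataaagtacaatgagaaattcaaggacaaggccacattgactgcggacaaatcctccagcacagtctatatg
Ighv1-71 (chr12:115742264-115742647, minus strand): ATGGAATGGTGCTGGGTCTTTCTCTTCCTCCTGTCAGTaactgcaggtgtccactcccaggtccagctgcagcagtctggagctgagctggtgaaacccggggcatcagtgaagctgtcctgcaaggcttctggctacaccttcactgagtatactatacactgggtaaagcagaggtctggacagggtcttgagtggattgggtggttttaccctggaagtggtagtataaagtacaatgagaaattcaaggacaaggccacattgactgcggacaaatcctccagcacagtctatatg
Igkv1-110 (chr6:68270527-68271208, plus strand): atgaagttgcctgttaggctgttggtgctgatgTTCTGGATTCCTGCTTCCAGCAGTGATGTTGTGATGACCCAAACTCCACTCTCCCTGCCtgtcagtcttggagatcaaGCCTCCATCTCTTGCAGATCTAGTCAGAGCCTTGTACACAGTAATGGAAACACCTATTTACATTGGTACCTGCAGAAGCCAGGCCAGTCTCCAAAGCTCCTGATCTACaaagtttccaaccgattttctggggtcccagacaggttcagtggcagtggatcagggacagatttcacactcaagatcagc
Igkv1-117 (chr6:68121091-68121768, plus strand): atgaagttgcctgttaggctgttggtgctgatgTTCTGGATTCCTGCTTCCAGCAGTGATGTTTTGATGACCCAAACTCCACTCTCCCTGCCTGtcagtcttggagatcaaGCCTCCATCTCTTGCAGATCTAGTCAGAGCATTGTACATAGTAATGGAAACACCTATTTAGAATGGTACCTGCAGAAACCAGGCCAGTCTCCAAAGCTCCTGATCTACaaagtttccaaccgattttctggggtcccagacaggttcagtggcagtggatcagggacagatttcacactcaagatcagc

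Normalized counts summed to between 22594850 and 30332463 per library. Tomatoneg replicate 1 stood apart: 13025 genes were above 0 in it, against 16008 and 15644 in replicates 2 and 3, and its Pearson r with them over the genes tested was 0.850 and 0.818, against 0.924 between those 2. The main results are therefore given with and without it. Foxo1 was 467, 274 and 371 in CD24negTomato+ libraries and 695, 518 and 424 in Tomatoneg libraries (log2 difference -0.56 ± 0.33 SE, limma adjusted p = 0.427), and 319, 193 and 201 in CD24+Tomato+ libraries against 748, 529 and 444 (-1.27 ± 0.36 SE, adjusted p = 0.0579, or 0.0219 when the replicate number entered the fit as a block). Neurog3, whose promoter drives the Cre, was 80.2, 123 and 147 in Tomatoneg libraries, above the 14.6, 19.6 and 41.2 of CD24negTomato+ libraries (adjusted p = 0.126), and 1319, 1345 and 1364 in CD24+Tomato+ libraries against 102, 149 and 182 in the same table (adjusted p = 0.00231). Epcam was between 23036 and 34967 in the CD24negTomato+ table, and in the other it was 22504, 20987 and 20915 in CD24+Tomato+ libraries, below the 37673, 27533 and 24175 of the controls (adjusted p = 0.343).

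Immunoglobulin transcripts were sparse in sorted Tomato+ cells and more abundant in Tomatoneg cells. The summed normalized count of the 147 genes was 465, 875 and 1807 in CD24negTomato+ replicates 1 to 3 and 3657, 19390 and 24922 in Tomatoneg replicates 1 to 3. The groups did not overlap, although the highest Tomato+ library came closer to Tomatoneg replicate 1 than that library did to the other 2 controls. In the other table the sum was 524, 1094 and 1636 in CD24+Tomato+ libraries and 3928, 19851 and 26222 in the Tomatoneg libraries. Replicate 1 was the lowest of its group in all 3 groups. In bulk samples, fewer cells of a type and less RNA per cell cannot be told apart.

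The summed count was a small part of every library, between 0.0144% and 0.0954% in Tomatoneg cells, between 0.00164% and 0.00596% in CD24negTomato+ cells and between 0.00232% and 0.00568% in CD24+Tomato+ cells. Taken by replicate number, the CD24negTomato+ sum was 12.7%, 4.51% and 7.25% of the Tomatoneg sum, and the CD24+Tomato+ sum was 13.3%, 5.51% and 6.24%. Over the 3 same-numbered pairs the mean log2 ratio was -3.74 (SD 0.75) for CD24negTomato+ and -3.70 (SD 0.69) for CD24+Tomato+ cells. The log2 ratio of group means was -3.93 for CD24negTomato+ and -3.94 for CD24+Tomato+ cells. Without Tomatoneg replicate 1 these ratios were -4.40 and -4.41.

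**Figure D1:**
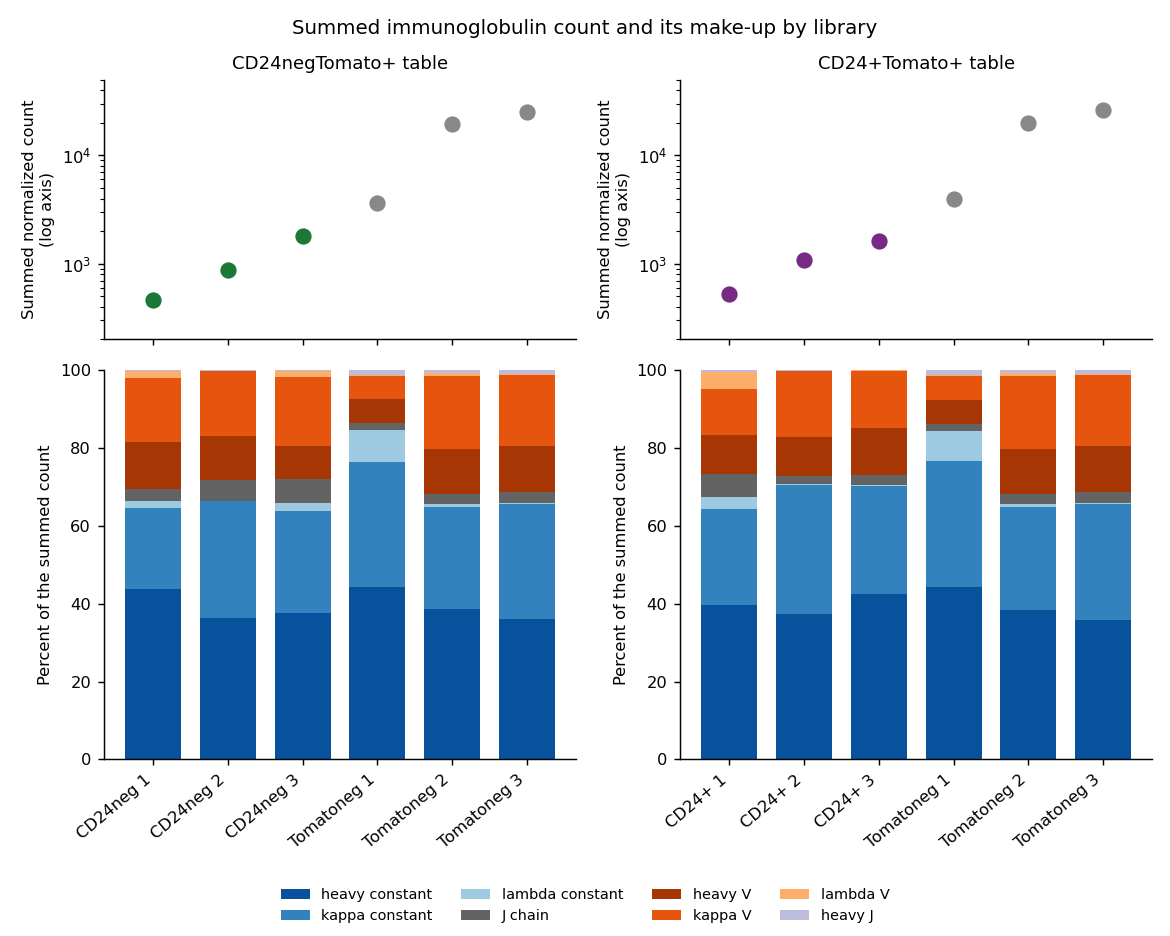
Top, the summed normalized count of the 147 immunoglobulin genes in each library (log axis), and bottom, the percent of that sum held by each class of gene, for the CD24negTomato+ table (left) and the CD24+Tomato+ table (right). Tomato+ libraries lie between 465 and 1807 and Tomatoneg libraries between 3657 and 26222, while constant genes hold most of the sum in every library.

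The constant genes carried most of the signal. Igkc (chr6:70726435-70726966, plus strand), the constant region of kappa light chains, was 96.5, 264 and 476 in CD24negTomato+ libraries, 130, 364 and 455 in CD24+Tomato+ libraries, and 1175, 5087 and 7339 in Tomatoneg libraries on the scale of the CD24negTomato+ table. The 6 Tomato+ values all lay below the 3 Tomatoneg values. Its log2 difference, on the log2(normalized count + 1) scale, was -3.93 ± 0.79 (SE, limma adjusted p = 0.0614) for CD24negTomato+ and -3.74 ± 0.73 (adjusted p = 0.0201) for CD24+Tomato+ cells. Under the replicate block the first adjusted p was 0.00137, and without Tomatoneg replicate 1 it was 0.0123.

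Among the heavy constant genes, Ighg2b and Igha were the most abundant per kilobase in Tomatoneg cells, and Ighm came after them. Ighg2b (chr12:113302965-113307933, minus strand), which encodes the IgG2b heavy chain, was 620, 3424 and 4732 in Tomatoneg, 24.7, 166 and 244 in CD24negTomato+ and 50.7, 241 and 242 in CD24+Tomato+ libraries. Igha (chr12:113254830-113260236, minus strand), which encodes the IgA heavy chain, was 557, 2883 and 3441 in the same order of groups, then 124, 135 and 418, and 137, 137 and 336. For both genes every Tomato+ library lay below every Tomatoneg library. The log2 difference of Ighg2b was -4.41 ± 1.01 (adjusted p = 0.0834, block 0.00126) in CD24negTomato+ and -3.97 ± 0.88 (adjusted p = 0.028) in CD24+Tomato+ cells. That of Igha was -3.20 ± 0.76 (adjusted p = 0.0915, block 0.0183) and -3.32 ± 0.71 (adjusted p = 0.0254). Without Tomatoneg replicate 1, the CD24negTomato+ adjusted p was 0.0238 for Ighg2b and 0.0123 for Igha.

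Ighm fell in both comparisons. This gene (chr12:113418558-113422730, minus strand), which encodes the heavy chain of IgM and of the receptor on naive B cells, was 365, 1055 and 594 in Tomatoneg, 52.2, 15.8 and 12.7 in CD24negTomato+ and 16.5, 27.1 and 92.6 in CD24+Tomato+ libraries. No Tomato+ library reached a Tomatoneg library, and unlike Igkc, Ighg2b and Igha it was highest in Tomatoneg replicate 2. Its log2 difference was -4.73 ± 0.66 (adjusted p = 0.0216) in CD24negTomato+ and -4.12 ± 0.72 (adjusted p = 0.0141) in CD24+Tomato+ cells.

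Jchain (chr5:88519809-88527891, minus strand) was 64.4, 488 and 679 in Tomatoneg, 14.4, 45.3 and 113 in CD24negTomato+ and 31.9, 23.1 and 42.1 in CD24+Tomato+ libraries. The CD24negTomato+ values overlapped the controls, since replicate 3 exceeded Tomatoneg replicate 1, and the CD24+Tomato+ values did not. The log2 difference was -2.69 ± 1.05 (adjusted p = 0.251, block 0.0302) and -3.18 ± 0.90 (adjusted p = 0.0595, block 0.0297). Without Tomatoneg replicate 1 the adjusted p was 0.038 and 0.00233.

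The rarer heavy constant genes were listed at 0 in some or all Tomato+ libraries. Ighg3, of IgG3, was 0 in all 6 Tomato+ libraries and 0, 57.1 and 106 in Tomatoneg libraries. Ighg1, of IgG1, was likewise 0 in all 6 and 1.48, 2.35 and 26.8 in Tomatoneg libraries. Ighd, of the IgD receptor of naive B cells, was 0, 53.8 and 81.6 in Tomatoneg, 2.68, 0 and 2.59 in CD24negTomato+ and 2.9, 2.47 and 25.3 in CD24+Tomato+ libraries. Ighg2c departed from this order of the controls: it was 76.2 in Tomatoneg replicate 1 and listed at 0 in replicates 2 and 3. It shares 14.4% of its 31-base stretches with Ighg2b. Adjusted p was 0.325, 0.473 and 0.697 for Ighg3, Ighd and Ighg2c in CD24negTomato+ cells and 0.183, 0.716 and 0.573 in CD24+Tomato+ cells, and Ighg1 was below the mean of 10 needed for testing. Without Tomatoneg replicate 1 the adjusted p was 0.0149 and 0.00494 for Ighg3 and 0.0311 and 0.0777 for Ighd. Both genes were at 0 in that library, so leaving it out favoured a fall, and these values are a description only.

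Of the lambda constant genes, 2 of 3 were highest in Tomatoneg replicate 1, where few V segments were above 0. Iglc2 was 162, 41.5 and 50.4 in Tomatoneg replicates 1 to 3 and Iglc3 was 138, 42.3 and 12.2, whereas Iglc1 was 0, 60.7 and 48.1. In Tomato+ cells Iglc2 was 0, 0 and 29.4 (CD24negTomato+) and 3.61, 1.47 and 0 (CD24+Tomato+), and Iglc3 did not exceed 0.959. Iglc2 and Iglc3 fell in CD24+Tomato+ cells (adjusted p = 0.0227 and 0.0307, log2 difference -4.91 ± 1.01 and -4.95 ± 1.13), and their adjusted p in CD24negTomato+ cells was 0.185 and 0.0963. Iglc1 passed in neither comparison (adjusted p = 0.584 and 0.451), or in CD24+Tomato+ cells alone without Tomatoneg replicate 1 (0.0613 and 0.0437). Iglc1 was at 0 in that library, so leaving it out favoured a fall, and the values without it are a description only. Iglc2 and Iglc3 are near copies, and 25.1% of the 31-base stretches of Iglc3 also occur in Iglc2.

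**Figure D2:**
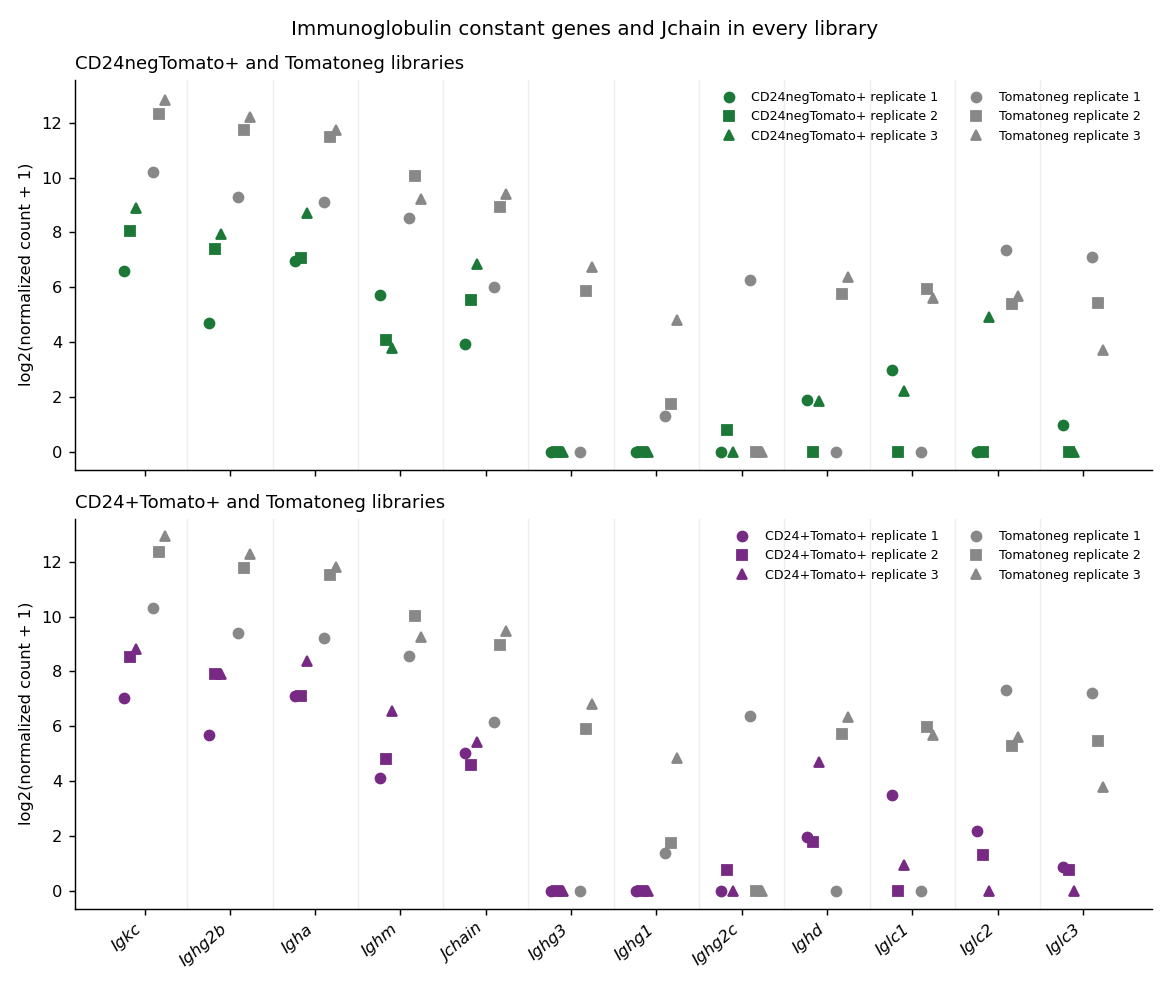
log2(normalized count + 1) of 11 constant genes and Jchain in each library, with Tomato+ libraries in colour and Tomatoneg libraries in grey, and replicates 1, 2 and 3 as circles, squares and triangles. Igkc, Ighg2b, Igha and Ighm lie lower in every Tomato+ library than in any Tomatoneg library, and Ighg2c is above 1 normalized count only in Tomatoneg replicate 1.

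Of 87 immunoglobulin genes tested in CD24negTomato+ cells, limma called 2 lower and 0 higher at an adjusted p under 0.05, where it called 0.32% of 13420 genes lower and 0.999% higher. The 2 genes were Ighm and Igkv1-110. At an unadjusted p under 0.05, 19 of the 87 were lower and 0 higher, against 915 lower and 1377 higher of the 13420 genes. In CD24+Tomato+ cells 19 of 91 were lower and 0 higher at an unadjusted p under 0.05, against 1598 lower and 2265 higher of 13874 genes. At the adjusted threshold 13 of the 91 were called lower and none higher, against 4.89% of all genes lower and 8.02% higher. These 13 were Igha, Ighg2b, Ighm, Igkc, Iglc2 and Iglc3, the J segment Ighj4, and the V segments Igkv1-110, Igkv1-135, Igkv14-111, Ighv3-1, Ighv2-2 and Ighv8-12. The other 60 and 56 genes were below the mean of 10 and were not tested. 

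The call counts of the immunoglobulin genes turned on single libraries, as did those of all genes, whose ranges are given at the end. Without Tomatoneg replicate 1, 61 of 96 tested genes were called lower in CD24negTomato+ cells (3.29% of all genes) and 73 of 99 in CD24+Tomato+ cells (6.16%). Of the 147 genes, 123 were at 0 in that library and 90 passed the minimum through Tomatoneg libraries alone. Leaving it out therefore favoured a fall, and these 2 counts are a description only. Without CD24negTomato+ replicate 2 or 3, or Tomatoneg replicate 2 or 3, 0 were called in CD24negTomato+ cells, and without CD24negTomato+ replicate 1 it was 1. Without CD24+Tomato+ replicate 1, 2 or 3 the CD24+Tomato+ count was 3, 1 and 1, and without Tomatoneg replicate 2 it was 6. Under the replicate block, 7 were called lower in CD24negTomato+ cells (2.96% of all genes) and 15 in CD24+Tomato+ cells (9.95%). The 5 genes added in the first case were Igha, Ighg2b, Igkc, Jchain and Igkv1-135.

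The median log2 difference of the tested immunoglobulin genes was -3.41 in CD24negTomato+ cells, where that of all genes was 0.08, and -3.31 in CD24+Tomato+ cells, where it was 0.16. Since 90 of the 147 genes passed the minimum through Tomatoneg libraries alone, the directions of the tested genes are given as a description. Of the tested genes, 86 of 87 and 91 of 91 had a difference below 0. The exception was Igkv3-3, which was 64.4 in CD24negTomato+ replicate 3 and listed at 0 in the other 8 libraries (log2 difference 2.01 ± 2.16, adjusted p = 0.666). Over the 147 genes, 19 had non-overlapping lower values in CD24negTomato+ cells (9.05% of all genes at the same minimum) and 21 in CD24+Tomato+ cells (12.8%), and 0 had non-overlapping higher values in either (15% and 21.8% of all genes). With Tomatoneg and Tomato+ replicates 2 and 3 alone, 117 of 147 had non-overlapping lower values in each table, against 24.4% and 23.3% of all genes. Of the 147, 123 were at 0 in Tomatoneg replicate 1, so leaving it out favoured this count, which is a description only.

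**Figure D3:**
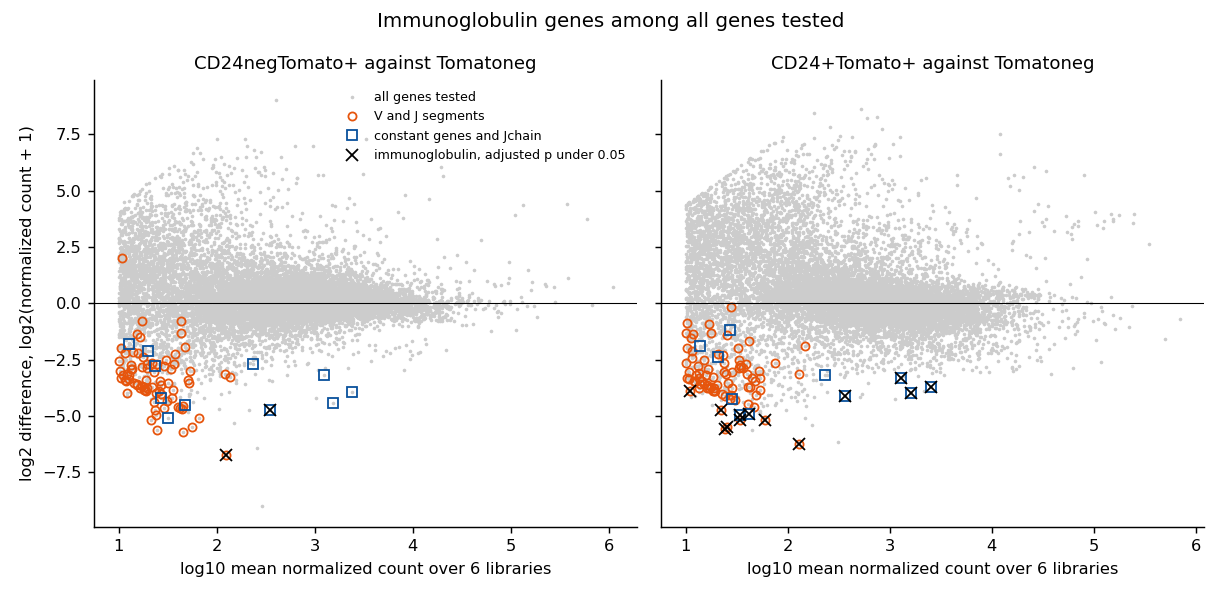
log2 difference against log10 mean normalized count over the 6 libraries of each table, with all genes tested in grey, V and J segments as orange circles, constant genes and Jchain as blue squares, and a cross on immunoglobulin genes with an adjusted p under 0.05. Of the immunoglobulin genes, 86 of 87 lie below 0 on the left and 91 of 91 on the right, with 2 and 13 crosses.

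Ighj4 was the heavy J segment with the most even control values. It was 46.3, 53.2 and 67.7 in Tomatoneg libraries, 0.873, 0 and 4.9 in CD24negTomato+ libraries and 1.15, 1.96 and 0 in CD24+Tomato+ libraries. It fell in CD24+Tomato+ cells (log2 difference -5.17 ± 0.86, adjusted p = 0.0123) and was -4.65 ± 1.03 in CD24negTomato+ cells (adjusted p = 0.0769). The other 3 J segments were listed at 0 in Tomatoneg replicate 1 and, in replicates 2 and 3, were 41.6 and 30 for Ighj1, 49.6 and 112 for Ighj2 and 24.5 and 53.1 for Ighj3. None of the 3 exceeded 2.34 in a Tomato+ library, and none passed the test in either comparison. All 3 fell in both without Tomatoneg replicate 1 (limma adjusted p from 0.0241 to 0.0425 and from 0.00997 to 0.0142). They were grouped by their 0 in that library, so leaving it out favoured a fall, and these values are a description only.

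V segments were numerous in 2 of the 3 Tomatoneg libraries and few elsewhere. Of the 131 V segments, 14, 114 and 125 were above 0 in Tomatoneg replicates 1 to 3, against 17, 23 and 35 in CD24negTomato+ and 22, 39 and 41 in CD24+Tomato+ libraries. Of these, 110 were above 0 in both Tomatoneg replicates 2 and 3, and 13 in all 3 Tomatoneg libraries. All 3 CD24negTomato+ libraries listed 73 of the 131 at 0, and all 3 CD24+Tomato+ libraries listed 60 at 0. The number above 0 did not simply follow the summed count: Tomatoneg replicate 1 had a larger immunoglobulin sum than any Tomato+ library and the fewest V segments above 0.

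The most abundant V segments of the Tomatoneg cells were kappa segments. Igkv10-96 was 0, 380 and 425 in Tomatoneg libraries, 1.97, 2.36 and 17 in CD24negTomato+ libraries and 17.8, 16.3 and 9.27 in CD24+Tomato+ libraries. Being at 0 in Tomatoneg replicate 1, it overlapped the Tomato+ values in both comparisons, and without that library its adjusted p was 0.0149 and 0.00224 (0.496 and 0.629 with it). Igkv15-103, Igkv8-21, Igkv6-15, Igkv17-127, Igkv4-91 and Ighv1-64 had the same form, with 0 in Tomatoneg replicate 1 and between 54.2 and 236 in replicates 2 and 3 on the scale of the CD24negTomato+ table. None of these 6 passed in either comparison with all libraries. Without Tomatoneg replicate 1, 4 of 6 fell in CD24negTomato+ and 5 of 6 in CD24+Tomato+ cells. The 6 were grouped by their 0 in that library, so leaving it out favoured a fall. These counts, like the values of Igkv10-96 without that library, are therefore a description only. Ighv3-6, a heavy V segment among the 10 highest of both tables, was 7.38, 149.6 and 116 in Tomatoneg libraries, listed at 0 in CD24negTomato+ libraries and at most 5.46 in CD24+Tomato+ libraries (adjusted p = 0.0952 and 0.0993, or 0.00961 and 0.0125 without Tomatoneg replicate 1).

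Igkv1-110 had the largest fall among the genes that were called and lower in all 3 same-numbered pairs, in both comparisons. It was 58.5, 274 and 403 in Tomatoneg libraries, 0, 0 and 4.49 in CD24negTomato+ libraries and 0, 15.9 and 0 in CD24+Tomato+ libraries. It did not overlap between groups, and its log2 difference was -6.73 ± 1.12 (adjusted p = 0.0393) and -6.25 ± 1.35 (adjusted p = 0.0255). Its near copy Igkv1-117, printed above, was 15.9, 228 and 380 in Tomatoneg libraries and reached 74.7 in CD24negTomato+ and 66.6 in CD24+Tomato+ replicate 2. The values of Igkv1-117 overlapped, and its adjusted p was 0.406 and 0.311, or 0.0361 in CD24+Tomato+ cells with the block. How reads shared by this pair were split between them was not tested.

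Igkv1-135, Igkv14-111 and Ighv3-1 were among the 5 largest falls in CD24+Tomato+ cells. Igkv1-135 was 34.9, 89 and 210 in Tomatoneg libraries and at most 2.91 in any Tomato+ library (log2 difference -5.18 ± 0.93, adjusted p = 0.0155). Ighv3-1 was 46.5, 32.2 and 58.3 in Tomatoneg libraries, was listed at 0 in all 3 CD24+Tomato+ libraries, and reached 3.86 in CD24negTomato+ cells. Igkv14-111 was 28.9, 30.2 and 82.6 and likewise 0 in all CD24+Tomato+ libraries. Since these segments were also present in Tomatoneg replicate 1, their groups did not overlap, and the adjusted p in CD24+Tomato+ cells was 0.0105 for Ighv3-1 and 0.0131 for Igkv14-111. In CD24negTomato+ cells the adjusted p of the 3 was 0.0554 (Igkv1-135, block 0.0466), 0.0857 (Ighv3-1) and 0.0773 (Igkv14-111). Ighv2-2 passed in CD24+Tomato+ cells (adjusted p = 0.0467) but not with the block (0.0765), and Ighv5-4 only with the block (0.0602 and 0.0485).

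**Figure D4:**
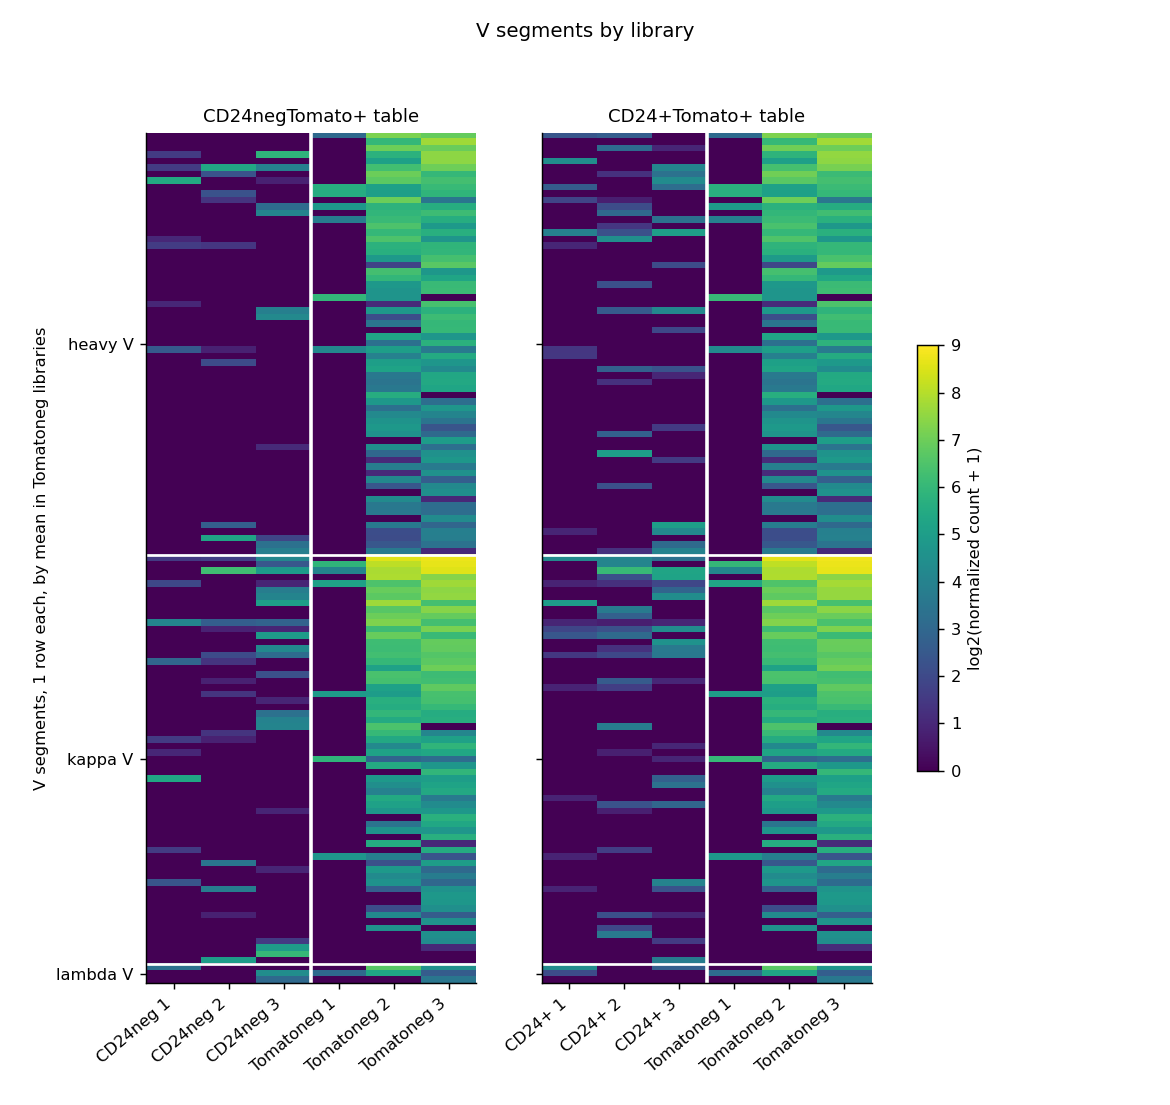
log2(normalized count + 1) of the 131 V segments (rows, ordered within heavy, kappa and lambda V by their mean in Tomatoneg libraries) in the 6 libraries of each table (columns). Tomatoneg replicates 2 and 3 hold 114 and 125 segments above 0, and the other columns hold between 14 and 41.

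The make-up of the immunoglobulin transcripts within a library is given as a description, since the rule decided which segments are counted: 86 heavy and 84 kappa V rows were above 0 in some library, and 65 and 63 of them were kept. The V counts summed to 6027 and 7550 in Tomatoneg replicates 2 and 3 and to between 137 and 500 in the other 7 libraries. In Tomatoneg replicates 2 and 3 the V counts were spread over many segments: the leading segment, Igkv10-96, held 6.31% and 5.62% of all V counts, and 20 and 21 segments were needed to reach 50% of them. The effective number of segments, the reciprocal of the summed squared shares, was 50.5 and 51.9. In Tomatoneg replicate 1 it was 10.5, with Ighv6-3 leading at 13.5%. It was 5.10, 6.07 and 17.2 in CD24negTomato+ and 8, 11.8 and 22.2 in CD24+Tomato+ libraries, where the leading segment held between 8.39% and 30.8%. The leading segments of the Tomato+ libraries were Ighv2-5, Igkv1-117 and Igkv3-3 in CD24negTomato+ replicates 1 to 3 and Igkv8-21, Igkv1-117 and Igkv1-117 in CD24+Tomato+ replicates 1 to 3.

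The V segments above 0 in Tomato+ cells can be set beside those of the controls, although the level rule, carried mainly by Tomatoneg replicates 2 and 3, fixed most of the sharing. Of all 131 V segments, 87.0% and 95.4% were above 0 in Tomatoneg replicates 2 and 3. Of the 17, 23 and 35 segments above 0 in CD24negTomato+ libraries, 17, 22 and 33 were above 0 in Tomatoneg replicate 3, which is 100%, 95.7% and 94.3% of them and 13.6%, 17.6% and 26.4% of the 125 segments of that control. Of the 22, 39 and 41 in CD24+Tomato+ libraries, 22, 37 and 40 were. These shares are near the 95.4% of all V segments, so nothing is read from them. Tomatoneg replicate 1, with 14 segments, had 2, 4 and 5 in common with the CD24negTomato+ libraries. The 2 segments above 0 in Tomato+ cells and in no Tomatoneg library were Igkv3-3 and Igkv3-4, of the same subgroup, which was 30.3 in CD24negTomato+ replicate 2 and 12.7 in CD24+Tomato+ replicate 3. These 2 were named after their values were seen.

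The heavy constant genes kept a similar order in the 3 control libraries. Igha made up 34.4%, 38.6% and 38.3% of the heavy constant count in Tomatoneg replicates 1 to 3, and Ighg2b made up 38.3%, 45.8% and 52.7%. Per kilobase of the shortest transcript, Ighg2b was 557, 3074 and 4248 and Igha was 506, 2621 and 3128, so Ighg2b was the higher in each. In CD24negTomato+ libraries Igha made up 60.8%, 42.6% and 61.7% and Ighg2b 12.2%, 52.2% and 36.1%, and in CD24+Tomato+ libraries they made up 66.2%, 33.6% and 48.3% and 24.5%, 59.0% and 34.7%. The share of Igha was above all 3 controls in every CD24negTomato+ library and overlapped the controls in CD24+Tomato+ libraries, and the share of Ighg2b overlapped in both. These shares were not tested. Ighm made up 22.6%, 14.1% and 6.62% in Tomatoneg libraries and between 1.87% and 25.7% in Tomato+ libraries.

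Light chain transcripts were mainly kappa. Lambda constant genes made up 20.4% of the light constant count in Tomatoneg replicate 1 and 2.76% and 1.49% in replicates 2 and 3, and between 0% and 10.2% in Tomato+ libraries. For every 100 counts of Igkc there were 71.6 and 62.4 counts of kappa V segments in Tomatoneg replicates 2 and 3, and between 47.9 and 79.0 in the 6 Tomato+ libraries. In Tomatoneg replicate 1 there were 18.8, the lowest of the 9 libraries. Heavy V segments gave 13.7 counts per 100 heavy constant counts in that library and between 22.7 and 32.6 in the other 8. Jchain gave 11.6, 16.9 and 19.7 counts per 100 of Igha in Tomatoneg and between 11.7 and 33.6 in Tomato+ libraries.

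Markers of T cells and of leukocytes in general were also lower in Tomato+ cells. Of 17 T cell and intraepithelial lymphocyte genes tested, 3 fell in CD24negTomato+ cells (6 with the block) and 11 in CD24+Tomato+ cells, with a median log2 difference of -2.80 and -3.58. Leaving out Tomatoneg replicate 1, 12 and 15 fell. Their summed level was between 3659 and 12762 in Tomatoneg, between 705 and 1396 in CD24negTomato+ and between 532 and 599 in CD24+Tomato+ libraries, and no gene of the list was at 0 in all libraries of a group. Cd8a, the coreceptor of cytotoxic T cells, was 60.7, 35.3 and 43.5 in CD24negTomato+ and 240, 708 and 402 in Tomatoneg libraries (adjusted p = 0.0372). Of 6 leukocyte genes, Itgb2 and Laptm5 fell in CD24negTomato+ cells (4 with the block), and Itgb2, Cd53, Coro1a and Laptm5 fell in CD24+Tomato+ cells. The 6 summed to between 1862 and 2683 in Tomatoneg, between 381 and 598 in CD24negTomato+ and between 952 and 1045 in CD24+Tomato+ libraries. The part of these cells in the immunoglobulin result was not tested.

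B cell markers were at low levels in every library, and their median log2 difference was -1.69 in CD24negTomato+ and -1.66 in CD24+Tomato+ cells, with 7 of 8 and 8 of 10 tested genes below 0. The 16 genes of the list summed to 143, 405 and 867 in Tomatoneg libraries, 70.6, 143 and 204 in CD24negTomato+ libraries and 130, 155 and 277 in CD24+Tomato+ libraries. Cd79a, a signalling chain of the B cell receptor, was 44.6, 76.8 and 175 in Tomatoneg and 7.42, 0.7 and 0.96 in CD24+Tomato+ libraries and fell there (log2 difference -4.88 ± 0.99, adjusted p = 0.0217). In CD24negTomato+ cells it was 1.89, 1.49 and 15.5 (adjusted p = 0.0993, block 0.043). It was the only one of 10 B cell genes tested in CD24+Tomato+ cells that passed, and none of 8 passed in CD24negTomato+ cells. In the fit that left out Tomatoneg replicate 1, 1 of 11 fell in CD24negTomato+ and 2 of 10 in CD24+Tomato+ cells, with medians of -2.48 and -2.01. Pax5, their lineage factor, was 0, 11.8 and 11.2 in Tomatoneg libraries. Of the 16 genes, 3 were listed at 0 in all CD24negTomato+ libraries and 0 in all CD24+Tomato+ libraries. The part of B cells in the result was not tested.

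Plasma cell markers were split, with a median log2 difference of -0.83 in CD24negTomato+ and -0.84 in CD24+Tomato+ cells. Mzb1, a chaperone of antibody assembly, was 0, 42.2 and 89.0 in Tomatoneg, 3.82, 4.52 and 7.31 in CD24negTomato+ and 1.67, 3.51 and 3.84 in CD24+Tomato+ libraries, so it was low in the same control as the V segments (adjusted p = 0.717 and 0.49, or 0.0376 and 0.0138 without that library). Irf4, a factor of plasma cells and lymphocytes, was 1.34, 29.3 and 48.3 in Tomatoneg libraries, 0 in the 3 CD24negTomato+ libraries and at most 2.92 in CD24+Tomato+ libraries (adjusted p = 0.269 and 0.27, or 0.0286 and 0.0303 without Tomatoneg replicate 1). Mzb1 was at 0 and Irf4 at 1.34 in that library. Leaving it out therefore favoured a fall of both, and their values without it are a description only. Tnfrsf17, a survival receptor of plasma cells, did not exceed 2.25 in any library. Xbp1, Txndc5 and Fkbp11, secretory genes that epithelial cells express as well, did not share this pattern: Txndc5 rose in both comparisons (adjusted p = 0.0477 and 0.00871) and Fkbp11 in CD24+Tomato+ cells (adjusted p = 0.0122). Of 11 plasma cell genes tested, 0 fell in either comparison. With the block, 2 fell and 1 rose in CD24negTomato+ cells, and 1 fell and 2 rose in CD24+Tomato+ cells. Without Tomatoneg replicate 1, 3 fell and 1 rose in CD24negTomato+ cells. In CD24+Tomato+ cells that fit had 3 that fell and 3 that rose, the latter being Derl3, Fkbp11 and Txndc5. Mzb1 and Irf4 were among the 3 that fell in each comparison. With Txndc5 and Xbp1 in it, the list summed to between 16724 and 28799 in Tomatoneg, between 40214 and 46683 in CD24negTomato+ and between 49989 and 62449 in CD24+Tomato+ libraries. The part of plasma cells in the immunoglobulin result was not tested.

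Myeloid and epithelial markers showed smaller differences. The median log2 difference of the myeloid genes was 0.45 in CD24negTomato+ and 0.54 in CD24+Tomato+ cells. Itgam fell in CD24+Tomato+ cells (1 of 8 tested), and none of 9 passed in CD24negTomato+ cells. The myeloid medians without Tomatoneg replicate 1 were -0.60 and -0.46, with 0 and 2 genes lower. That of the 10 epithelial genes was 0.04 and -0.38, with Krt18 higher in CD24+Tomato+ cells (log2 difference 2.14 ± 0.31, adjusted p = 0.009) and 9 of the 10 below 0 there. With the block, 2 epithelial genes rose in CD24negTomato+ cells, and 3 fell and 1 rose in CD24+Tomato+ cells. The epithelial genes summed to between 409218 and 587692 in Tomatoneg, between 494317 and 589178 in CD24negTomato+ and between 356642 and 454992 in CD24+Tomato+ libraries. Myeloid genes summed to between 520 and 1069 in Tomatoneg, between 410 and 871 in CD24negTomato+ and between 463 and 777 in CD24+Tomato+ libraries.

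**Figure D5:**
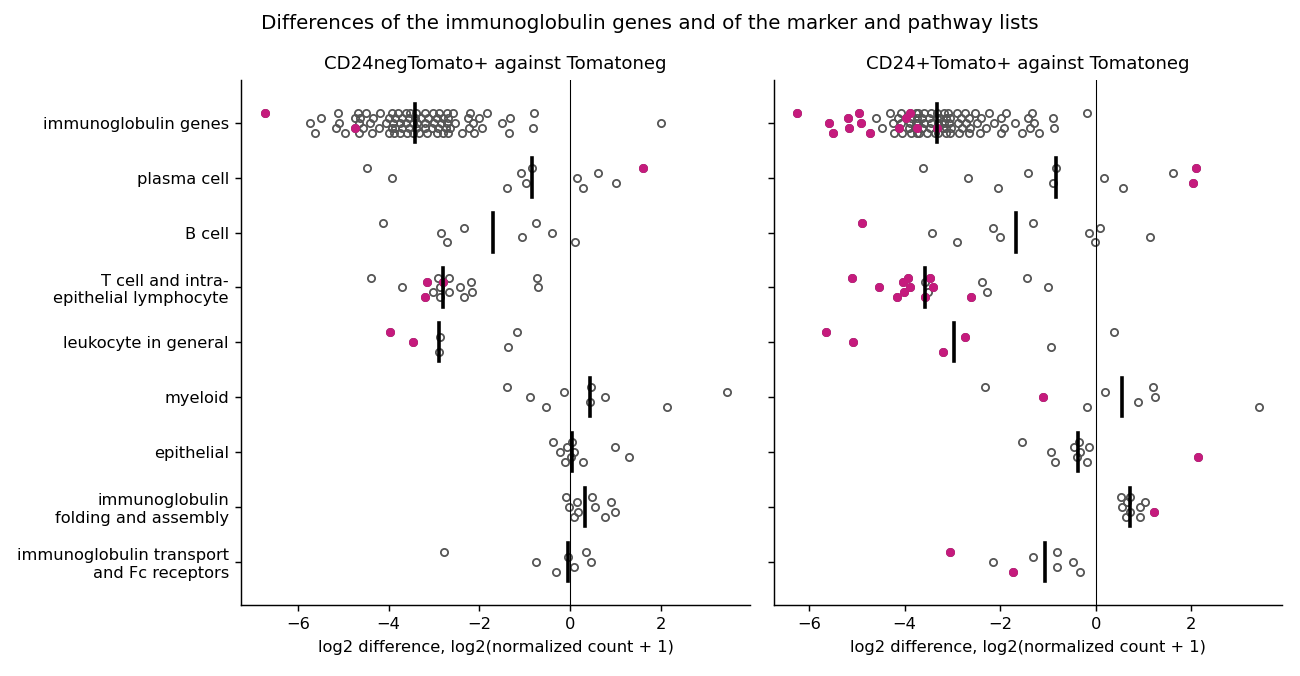
log2 difference of each tested gene of the immunoglobulin set and of 8 marker and pathway lists, with filled points for an adjusted p under 0.05 and a bar at the median. The medians of the immunoglobulin genes are -3.41 (left) and -3.31 (right), and those of the T cell list are -2.80 and -3.58.

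Genes that act on antibodies after their assembly showed other patterns. Pigr, the epithelial receptor for dimeric IgA, was 73226, 107039 and 87522 in CD24negTomato+ and 83565, 94480 and 73309 in Tomatoneg libraries (log2 difference 0.08 ± 0.32, adjusted p = 0.92). It was 43827, 54546 and 51633 in CD24+Tomato+ libraries, below all 3 controls (-0.81 ± 0.35, adjusted p = 0.179, block 0.0376). Fcgrt, the neonatal receptor that carries IgG, fell in CD24+Tomato+ cells (-1.74 ± 0.27, adjusted p = 0.00979), as did Fcer1g, the signalling chain of several Fc receptors (-3.06 ± 0.62, adjusted p = 0.0213). No gene of this list of 12 passed in CD24negTomato+ cells, with 7 tested, or with 8 tested without Tomatoneg replicate 1.

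Transcripts of some signals that recruit or keep plasma cells were present in every sorted group, and the cells that they came from were not tested. Ccl25, the chemokine of the small intestinal epithelium, was 10488, 9210 and 10073 in CD24negTomato+ and 12603, 10258 and 10747 in Tomatoneg libraries, and fell in CD24+Tomato+ cells to 2993, 2156 and 2419 (log2 difference -2.23 ± 0.22, adjusted p = 0.00259). Aldh1a1, an enzyme of retinoic acid synthesis, fell there too (-2.63 ± 0.62, adjusted p = 0.0334). Il6 was listed at 0 in every library. Itgb7, the integrin chain of gut-homing lymphocytes, was 84.6, 106 and 95.3 in CD24negTomato+ and 620, 280 and 446 in Tomatoneg libraries (adjusted p = 0.0518, block 0.035). Of 8 genes tested in each comparison, 0 passed in CD24negTomato+ and 2 in CD24+Tomato+ cells, or 1 and 3 without Tomatoneg replicate 1.

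The machinery that rearranges immunoglobulin genes was at or near 0. Rag1 and the surrogate light chain gene Igll1 were listed at 0 in every library, and Rag2 did not exceed 1.40. Of this list of 8, only Ung, a uracil glycosylase of general DNA repair, was tested, and it passed in neither comparison, though it fell in CD24negTomato+ cells without Tomatoneg replicate 1. Pou2af1, the coactivator of octamer-dependent immunoglobulin transcription, was 0, 66.5 and 68.9 in Tomatoneg, 3.43, 5.39 and 16.6 in CD24negTomato+ and 6.44, 21.9 and 48.8 in CD24+Tomato+ libraries (adjusted p = 0.784 and 0.962, or 0.0564 and 0.177 without Tomatoneg replicate 1). Leaving out that library, where Pou2af1 was at 0, favoured a fall. Pou2f3, the octamer factor of tuft cells, fell in CD24negTomato+ cells (log2 difference -3.94 ± 0.66, adjusted p = 0.0397) and rose in CD24+Tomato+ cells (2.54 ± 0.31, adjusted p = 0.00567).

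Genes of antibody folding and assembly in the endoplasmic reticulum, which serve all secreted proteins, were not lower where the immunoglobulin genes were. Of 10 tested, 0 fell in either comparison, and Pdia6, a disulfide isomerase, rose in CD24+Tomato+ cells (log2 difference 1.21 ± 0.27, adjusted p = 0.0288). With the block 1 rose in CD24negTomato+ and 6 in CD24+Tomato+ cells, and without Tomatoneg replicate 1, 0 and 2 rose. Their median log2 difference was 0.34 and 0.72.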

How the data were processed

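RNA-Seq was done on 9 libraries of sorted mouse small intestinal cells, 3 per group. The authors sequenced poly-A-selected libraries and, per the labels, used bcl2fastq 2.19, kallisto 0.44.0, sleuth and DESeq2 with GRCm38; the annotation is not given in the sources used here. The authors deposited a signal, estimated counts divided by DESeq2 factors, in 2 tables normalized separately. Whole reads could not be recovered from them, so no count model was run and depth per library is only estimated. An exact 0 is given as listed at 0.

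Values were compared as log2(normalized count + 1) with limma 3.58.1 (R 4.3.3), two-sided, with a mean-variance trend, within each table, keeping the genes whose mean reached 10. P-values were adjusted by the Benjamini-Hochberg method over all genes tested, and a call is an adjusted p under 0.05. The script was tested on simulated data. Same-numbered libraries deviated together in every pair (correlation 0.302, 0.291 and 0.342 for CD24negTomato+ with Tomatoneg, and 0.283, 0.180 and 0.375 for CD24+Tomato+ with Tomatoneg), so a second fit that adds the replicate number as a block is given where it changes a call.

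The genes and lists were chosen with earlier results of these data known. Named genes were all constant genes and Jchain, the 10 V segments with the highest mean in each table, the 5 largest falls and rises among called genes with 1 direction in all 3 pairs, those at the minimum, and list genes where a list is described. Ighv2-2, Ighv5-4 and Ighv8-12, and the leading segments of single libraries, were added after their values were seen. Positions, lengths and sequences came from GENCODE M21. Other pseudocounts, filters and scalings and leave-one-out fits were tried.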

Additional observations from a re-analysis of the deposited data

Results flagged for a closer look

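No immunoglobulin gene moved one way in every CD24negTomato+ pair and the other way in every CD24+Tomato+ pair. Among the other genes with values given here, 6 did, and the difference between the comparisons was not tested, since they share control libraries and come from separately normalized tables. The log2 difference in CD24negTomato+ and in CD24+Tomato+ cells was -2.26 and 3.25 for Neurog3, the lineage factor behind the reporter. It was -3.94 and 2.54 for Pou2f3, and -1.79 and 0.41 for Ung. It was -1.37 and 0.37 for Lcp1, a leukocyte actin-bundling protein. It was 1.02 and -1.42 for Prdm1, a plasma cell and enterocyte factor, and 0.33 and -2.63 for Aldh1a1. Groups of 3 libraries are too small for the test of a single outlying library.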

How the results depend on the processing

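No immunoglobulin result followed through the alternatives reversed. The median log2 difference of the myeloid genes changed sign without Tomatoneg replicate 1. It went from 0.45 to -0.60 in CD24negTomato+ cells and from 0.54 to -0.46 in CD24+Tomato+ cells. Of the 4 octamer-binding factors and coactivator, 1 was below 0 in CD24+Tomato+ cells, and 2 were without that library. Among the single genes named, 631 of the alternative values stayed on the same side of the threshold, 49 passed it and 55 no longer did. The immunoglobulin genes called lower in CD24negTomato+ cells, 2 as reported, were 1 with a pseudocount of 0.1 or a mean of at least 30, 4 with a mean of at least 3, 7 with a pseudocount of 10 or the replicate block, 8 with quantile normalization or without the trend, and 0 to 61 with a library left out. In CD24+Tomato+ cells, 13 as reported, they were 8 with a pseudocount of 0.1 or a mean of at least 30 and 1 to 73 with a library left out. All genes called lower in CD24negTomato+ cells, 43 as reported, were 19 and 101 with pseudocounts of 0.1 and 10, 28 without the filter, 92 with quantile normalization, 397 with the replicate block, 95 without the trend and 1 to 442 with a library left out. All genes called higher there, 134 as reported, were 314 with a pseudocount of 10, 582 with the replicate block and 17 to 617 with a library left out. In CD24+Tomato+ cells, all genes called lower, 678 as reported, were 1381 with the replicate block, 429 without the trend and 41 to 858 with a library left out, and those called higher, 1113 as reported, were 731 with a pseudocount of 0.1 and 127 to 1620 with a library left out. The cause was not tested, beyond fewer genes tested under a stricter filter and fewer libraries in a fit. Apart from the genes given with it, the block changed no call among the immunoglobulin genes named. The log2 ratio of the summed counts stayed between -4.58 and -3.45 with a library left out. It kept its direction with V and J segments alone, an alternative added after seeing the data, as were the marker lists and J segments without Tomatoneg replicate 1. Of the 131 V and 4 J segments, 82 and 4 passed the minimum through Tomatoneg libraries alone. The rule thus largely fixed the direction of the V and J sum, which is no check of the ratio. The 3 libraries per group and the lack of whole counts limit what can be said of segments at a few normalized counts.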
